A study of Mus musculus with 4 samples.

Results

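The 9 genes described here carry out retinoic acid signalling: the nuclear receptors Rara, Rarb, Rarg and Rxra, the synthesis enzymes Aldh1a1 and Aldh1a3, the breakdown enzymes Dhrs3 and Cyp26b1, and the binding protein Crabp2. They were taken by name from a list of 21440 mouse protein-coding genes with a known strand, and not by a rule on measured values. Earlier results of these data were known when they were chosen. Of the 32011 open regions measured in mouse salivary gland organoids, 38 lay at the 5′ end of one of these genes, inside one, or nearest to the 5′ end of one among protein-coding genes.

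Retinoic acid is made from vitamin A by oxidation in successive steps, the last of which is carried out by the retinaldehyde dehydrogenases. It is carried to the nucleus by binding proteins, where it binds receptors of the RAR family, and these sit on DNA as pairs with an RXR partner at repeated half-sites. Enzymes that turn retinaldehyde back into retinol, and enzymes of the CYP26 family that oxidise retinoic acid, limit the signal, which is known in the salivary gland for its part in the branching of the developing gland.

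Bulk ATAC-seq, which maps the stretches of DNA that the Tn5 transposase can reach, had been carried out on 4 samples of organoids grown from the submandibular salivary gland of C57BL/6 mice. The labels name 2 samples of passage 1 and 2 of passage 2, with an animal of 12 weeks and an animal of 3 months in each passage, and the study's methods describe female animals, a different mouse for each sample. No sample had been irradiated, no genetic change is named, and all were grown in Matrigel in the same medium, which held EGF, FGF2, N2, insulin, dexamethasone, the ROCK inhibitor Y27632 and media conditioned with R-spondin1 and Wnt3a; no retinoid is named among the listed additives. A 12-week-old and a 3-month-old mouse are close in age, and the organoids hold cells that grew in this medium and not the whole gland. The authors deposited 1 list, which names no sample. It was taken to be the joint list of all samples that the study's methods describe, an assumption, since its number of regions is not the one stated there. No gene therefore has a value for a single sample, passage or age, the spread between mice and the depth of each library are unknown, and every value below is a description with no test.

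Each region carries the fold of its signal over the local background at the summit with the lowest q-value, the −log10 of that q-value, and an IDR score, which grades how well a region was found again between replicates and reaches at most 1000. In all 32011 regions the median fold was 7.11, with quartiles at 5.70 and 9.32, and 45.1% had the highest IDR score. As a check of the labelled tissue, 8 of 11 marker genes of epithelial, basal and stem/progenitor cells had a region less than 1 kb from their 5′ end, as did 0 of 6 markers of acinar and myoepithelial cells and 1 of 11 markers of immune, endothelial and fibroblast cells, the 1 being Cd68. The share of all protein-coding genes was 38.3%, and the epithelial, basal and stem/progenitor markers without such a region were Krt18, Krt19 and Trp63. Because the material was bulk, fewer cells with an open region and weaker opening in each cell cannot be told apart. A region counts as lying at a 5′ end when its midpoint is within 1 kb of the outermost 5′ end of the gene, and as inside when its midpoint lies between the gene's ends. The gene table used gives only the ends of genes, so exons and introns were not told apart.

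The sequences before 4 start sites are shown first, because these starts mark the range seen in these genes, from a start under an open region to one far from any. They are the 250 bases before a listed start of Rara and of Aldh1a1 that a region covered, and before listed starts of Rarg and Rarb that no region covered, all from the RefSeq promoter table of GRCm38.p6, which held 15 starts of 7 of the 9 genes and no entry for Aldh1a3 or Crabp2. Capitals mark, on either strand, a receptor half-site, whose forms are spelled out with the motif counts, a CCAAT box or a GC box (GGGCGG), and each stretch is written 5′ to 3′ along its gene.
Rara, chr11:98937446-98937695, plus strand: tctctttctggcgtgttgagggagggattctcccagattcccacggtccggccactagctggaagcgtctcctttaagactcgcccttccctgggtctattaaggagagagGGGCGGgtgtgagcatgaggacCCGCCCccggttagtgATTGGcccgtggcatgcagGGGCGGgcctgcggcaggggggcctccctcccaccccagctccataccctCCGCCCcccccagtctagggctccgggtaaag
Aldh1a1, chr19:20601718-20601967, plus strand: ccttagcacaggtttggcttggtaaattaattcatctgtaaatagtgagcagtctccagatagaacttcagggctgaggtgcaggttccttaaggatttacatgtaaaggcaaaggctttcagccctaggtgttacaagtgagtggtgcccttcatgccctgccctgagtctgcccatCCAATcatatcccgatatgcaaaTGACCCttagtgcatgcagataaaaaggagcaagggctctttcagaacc
Rarg, chr15:102246501-102246750, minus strand: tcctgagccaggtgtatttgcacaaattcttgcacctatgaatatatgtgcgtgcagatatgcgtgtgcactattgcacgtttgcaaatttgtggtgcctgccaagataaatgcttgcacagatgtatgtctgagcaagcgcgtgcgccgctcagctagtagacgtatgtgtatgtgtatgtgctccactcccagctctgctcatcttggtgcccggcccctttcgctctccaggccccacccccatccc
Rarb, chr14:16575477-16575726, minus strand: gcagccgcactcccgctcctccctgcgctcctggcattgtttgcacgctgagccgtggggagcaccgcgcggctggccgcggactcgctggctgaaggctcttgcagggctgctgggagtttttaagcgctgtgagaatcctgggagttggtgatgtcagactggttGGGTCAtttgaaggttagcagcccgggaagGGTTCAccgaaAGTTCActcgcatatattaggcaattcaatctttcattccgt
The Rara stretch held 4 GC boxes and a CCAAT box and lay for 92.8% of its length inside an open region. In the Aldh1a1 stretch, of which 92.4% was covered, there were 1 half-site and 1 CCAAT box. Letters of none of these kinds occurred in the Rarg stretch, and the edge of the closest region was 416 bp before the start. The Rarb stretch had 3 half-sites, and 2 of them form the direct repeat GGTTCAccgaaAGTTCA with 5 bases between them, but its closest region was 22.5 kb away.

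At the outermost 5′ end, an open region was found for 1 of the 9 genes, Dhrs3, whereas 38.3% of all 21440 protein-coding genes had one. None of the 4 receptors had a region there, and 1 of the 4 enzymes did. The distance from the outermost 5′ end to the midpoint of the closest region was 5.33 kb for Rarg, 5.57 kb for Rara, 7.79 kb for Cyp26b1, 12.3 kb for Crabp2, 19.6 kb for Aldh1a3, 27.1 kb for Rxra, 37.6 kb for Aldh1a1 and 69.4 kb for Rarb. The 8 genes without a region at the outermost 5′ end were thus all more than 5 kb from one.

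Several of these genes have more than 1 start, and the picture changed when inner starts were counted. With any start in the promoter table, 4 of the 7 genes in that table had a region within 1 kb (Rara, Rarg, Aldh1a1 and Dhrs3), against 42.0% of the 17492 protein-coding genes with a listed start. Counted this way the receptors had 2 of 4 genes with an open start and the enzymes 2 of 3. These shares were not matched for the number of starts, and a gene with more starts has more chances of an open one. By start, 7 of the 15 listed starts of these genes had a region within 1 kb, against 40.2% of 21263 starts. For Rara, Rarg and Aldh1a1 the open start lay 9.90 kb, 11.0 kb and 109 kb inward of the outermost 5′ end. Rarb, Rxra and Cyp26b1 had no region within 1 kb of any listed start.

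**Figure D1:**
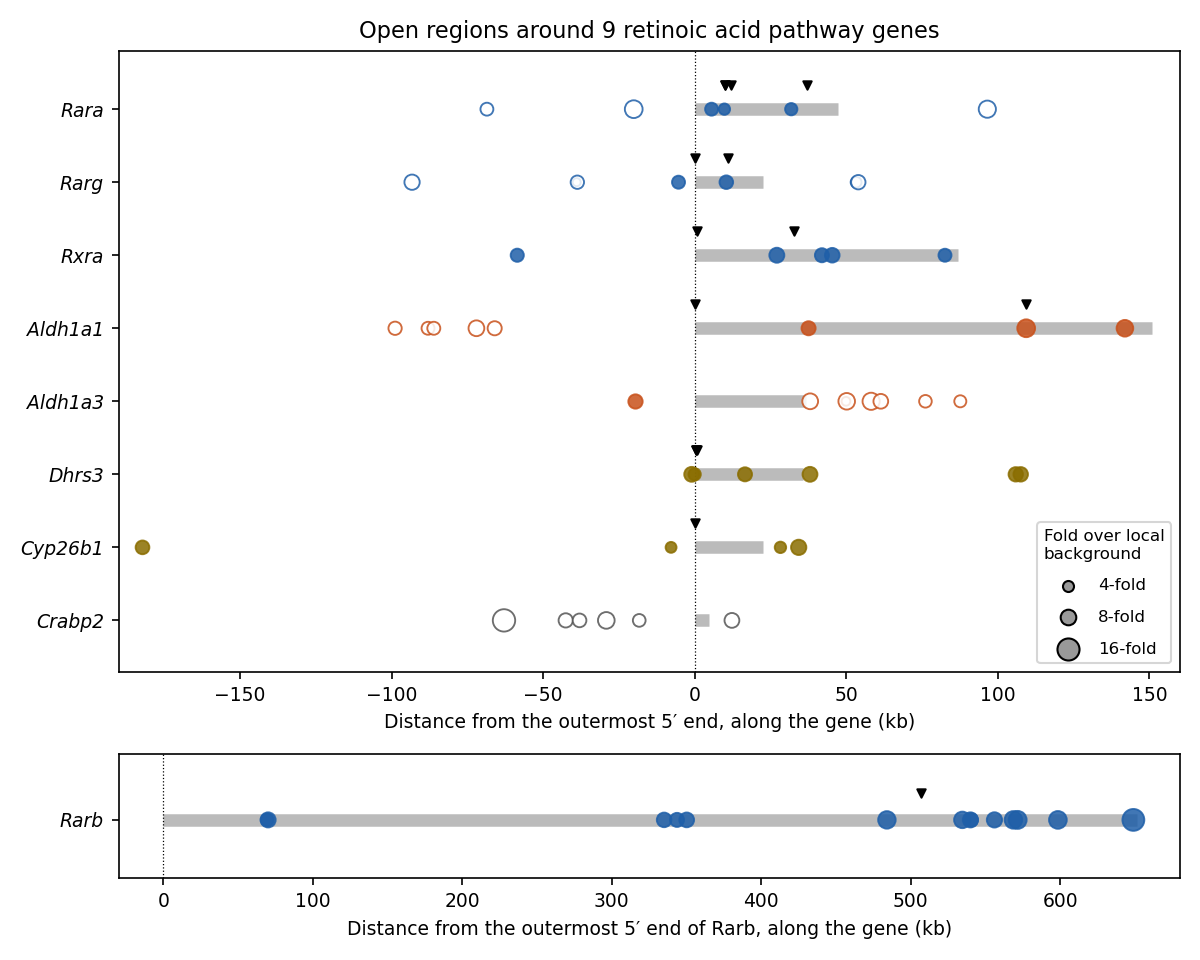
Open regions around the 9 genes, placed by their distance in kb from the outermost 5′ end of each gene, with Rarb on a scale of its own; grey bars are the genes, black triangles the listed starts, and circles grow with the fold. Filled circles are regions at the 5′ end, inside the gene or nearest to its 5′ end, and open circles are regions within 100 kb that are nearest to the 5′ end of another gene; only Dhrs3 has a circle at 0, and 14 filled circles lie inside Rarb.

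Rara encodes retinoic acid receptor alpha, which is found in most tissues. Its 47.1 kb held 3 regions, which was percentile 93.7 among genes of like length, whose median was 1. The region at the listed inner starts, chr11:98937464-98937744, had a fold of 4.28 and an IDR score of 710, and its midpoint lay 92 bp before one start and 114 bp before the next. The strongest of the 3, chr11:98933204-98933545, had a fold of 5.53 and lay 5.57 kb inside the gene, and the last, chr11:98959500-98959806, had a fold of 4.99. All 3 were below the lower quartile of the list, and none had an IDR score of 1000. The 5′ end of Cdc6 lies 20.1 kb before that of Rara, and the 5′ end of Gm46294 lies 14.4 kb after it, inside Rara. By distance, 2 of the 3 regions inside Rara were therefore nearer to the 5′ end of Gm46294 than to Rara's own.

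Rarb, retinoic acid receptor beta, is itself a known target of retinoic acid through a direct repeat in its promoter. It spans 651 kb and held 14 of the 26 regions inside these genes, which was percentile 95.8 among genes of like length, whose median was 2. None lay in the first 69 kb. From the 5′ end, the first pair was chr14:17012824-17013079 and chr14:17012136-17012508, with folds of 5.40 and 7.52 and 0.315 kb between them. A stretch of 265 kb without a region followed, and then 3 regions between 335 and 350 kb, at chr14:16747159-16747541, chr14:16738489-16738924 and chr14:16732107-16732367, with folds of 7.03, 6.54 and 7.19. Among protein-coding 5′ ends, these first 5 regions were nearest to that of Rarb and the other 9 to that of Top2b, a gene beyond the 3′ end of Rarb; with all gene types, 0 were nearest to Rarb.

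The 1 listed start of Rarb lies 507 kb inward of its outermost 5′ end, and most of the strong regions lay on its far side. Of the 14 regions, 6 lay before this start, with a median fold of 7.11 and 1 with an IDR score of 1000, and 8 lay after it, with a median fold of 9.60 and 5 with an IDR score of 1000. The closest on either side were chr14:16597982-16598575 (fold 10.1), 22.8 kb before the start, and chr14:16547428-16548162 (fold 9.01), 27.7 kb after it. Within 100 kb of this start were 8 regions, which placed it at percentile 81.9 of all listed starts, whereas the outermost 5′ end had 2 regions within 100 kb and was at percentile 29.9 of all genes. Beyond these, chr14:16513355-16513914 and chr14:16510582-16510998, 2.36 kb apart, had folds of 10.2 and 10.6, and chr14:16483418-16484309, with 892 bp and 5 summits the widest region of these genes, had a fold of 10.4. Near the 3′ end, 649 kb from the 5′ end, chr14:16433110-16433621 had a fold of 15.8 and a −log10 q of 112, the highest of all 38 regions on both scales and at percentile 97.8 of the whole list by fold. The remaining 3 regions after the start had folds of 7.52, 6.05 and 7.68.

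Rarg encodes the gamma receptor, which is prominent in epithelia such as the skin. There was 1 region inside its 22.6 kb, at percentile 74.4 for genes of like length. It was chr15:102246916-102247254, with a fold of 6.10 and an IDR score of 969, and its midpoint lay 585 bp before the inner start whose sequence is printed above. A further region, chr15:102262684-102263020, with a fold of 5.61, lay 5.33 kb before the outermost 5′ end. With the 5′ ends of Mfsd5 and Itgb7 within 25 kb on both sides, these 2 regions fell in a stretch of only 23.0 kb, which gave the highest density of the 9 genes, 8.69 regions nearest to the 5′ end per 100 kb.

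Rxra encodes the partner of the RAR receptors. It held 4 regions in 86.9 kb, at percentile 89.1 for its length, and 1 more lay outside. The first inside was chr2:27703376-27703716, with a fold of 7.42, 27.1 kb from the 5′ end and 5.75 kb before an inner start. Next came chr2:27718235-27718603 and chr2:27721631-27722018, 3.03 kb apart, with folds of 6.53 and 7.06, and then chr2:27758758-27759255, with a fold of 5.58, near the 3′ end. The region outside, chr2:27617760-27618093, had a fold of 5.72 and lay 58.5 kb before the 5′ end. Of these 5 regions, 3 had an IDR score of 1000, and among protein-coding genes all 5 were nearest to the 5′ end of Rxra, 3 of them with all gene types.

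Aldh1a1 encodes a retinaldehyde dehydrogenase and is widely used as a marker of stem and progenitor cells. It had 3 regions in 151 kb, at percentile 69.2 for its length, which is close to the median of 2. The strongest, chr19:20601737-20602125, with a fold of 10.5 and an IDR score of 1000, spanned the inner start 109 kb from the outermost 5′ end, and its midpoint was 37 bp before that start. A second region of IDR score 1000, chr19:20634265-20634730, with a fold of 9.16, lay 32.5 kb further on and was nearest to the 5′ end of the related gene Aldh1a7. The third, chr19:20529993-20530310, had a fold of 6.54. The median of the 3 folds, 9.16, was the highest of the 8 genes with a region. At the outer listed start there was none within 37 kb, and the 5 regions found between 66.0 and 98.8 kb before it were all nearest to Anxa1.

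Aldh1a3 encodes a second retinaldehyde dehydrogenase, and no region was found inside its 36.6 kb, where genes of like length had a median of 1. The 1 region nearest to its 5′ end was chr7:66446873-66447256, with a fold of 6.76, 19.6 kb before that end. Yet 8 regions lay within 100 kb, the most of the 9 genes and at percentile 82.1 of all genes. The other 7 lay beyond its 3′ end and were nearest to Lrrk1, with folds from 2.53 to 9.68, and the closest of them, chr7:66389236-66389513, with a fold of 8.20, was 1.52 kb beyond the 3′ end of Aldh1a3.

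Dhrs3 encodes a reductase that turns retinaldehyde back into retinol, and it is known to be induced by retinoic acid. It was the 1 gene with regions at the outermost 5′ end, and it had 2 there. The wider, chr4:144892153-144892900, covered 748 bp with 3 summits, had a fold of 4.99 and an IDR score of 788, and had its midpoint within 7.5 bp of the 5′ end. The other, chr4:144891391-144891701, 0.988 kb before the 5′ end, had a fold of 7.31 and an IDR score of 1000. Inside the gene was 1 region, chr4:144908862-144909405, with a fold of 6.52, and 3 lay beyond the 3′ end: chr4:144930393-144930748, 2.36 kb beyond it with a fold of 7.34, and the pair chr4:144998328-144998548 and chr4:144999825-145000330 about 70 kb beyond it, with folds of 6.82 and 6.94. Dhrs3 thus had 6 regions whose folds stayed between 4.99 and 7.34, all on the lower side of the upper quartile of the list.

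Cyp26b1 encodes an oxidase that clears retinoic acid. No region lay inside its 22.5 kb, and 4 were nearest to its 5′ end, in a stretch of 531 kb with no other protein-coding 5′ end closer. A pair flanked the gene closely, chr6:84601559-84601831, 7.79 kb before the 5′ end with a fold of 3.92, the lowest of the 38, and chr6:84565356-84565876, 5.80 kb beyond the 3′ end with a fold of 4.31. The strongest was chr6:84559394-84559802, 11.8 kb beyond the 3′ end, with a fold of 7.73 and an IDR score of 1000. The last, chr6:84775889-84776193, with a fold of 6.21, lay 182 kb before the 5′ end. Genes with a stretch of like length had a median of 2 regions, and Cyp26b1 was at percentile 69.9.

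Crabp2, which carries retinoic acid to its receptors, had no region at its 5′ end, inside its 4.68 kb or nearest to its 5′ end. All 6 regions within 100 kb were nearest to other genes. The closest was chr3:87960799-87961160, with a fold of 7.22, 12.3 kb downstream and nearest to Nes, and the next was chr3:87930012-87930802, with a fold of 5.33, at the 5′ end of Isg20l2. With 20.2 kb nearest to its 5′ end, Crabp2 lay among close genes, and the median for such a stretch was also 0.

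**Figure D2:**
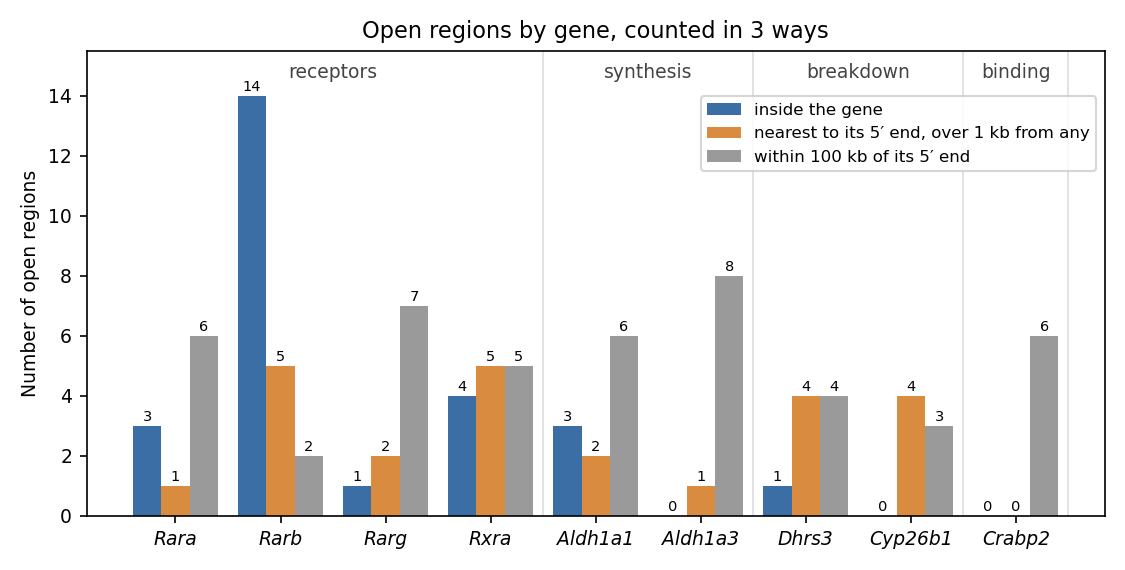
Number of open regions of each of the 9 genes, counted inside the gene, nearest to its 5′ end but at no protein-coding gene's 5′ end, or within 100 kb of its 5′ end. The receptors have 1 to 14 regions inside and the enzymes 0 to 3, whereas the counts within 100 kb run from 2 to 7 and from 3 to 8.

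Set side by side, the receptors held more regions inside than the enzymes. All 4 receptors had at least 1 region inside, 22 in total with a median of 3.5, and 2 of the 4 enzymes did, 4 in total with a median of 0.5, where 39.4% of all protein-coding genes had at least 1. The contrast in the number of genes was absent with an IDR score of 1000. There Rara and Rarg had 0 inside, Rarb 6 and Rxra 3. Of the enzymes, Aldh1a1 had 2 and Dhrs3 1, so that 2 of 4 genes had one in each group. In the 16006 regions with the lowest q-values the contrast remained. Rara and Dhrs3 fell to 0 there, whereas Rarb had 6, Rxra 3, Rarg 1 and Aldh1a1 2. The receptors' surplus inside was 8 regions in that set, beside 18 in the full list. At least 3 regions lay inside Rara, Rarb, Rxra and Aldh1a1, against 7.69% of all genes, a share that takes no account of gene length. For genes of like length, the receptors were at percentiles 74.4 to 95.8 and the enzymes at 22.2 to 69.2, so that these groups did not overlap. This was by midpoint: with any overlap counted, Dhrs3 had 2 regions inside, a count for which no percentile was taken. The gap did not extend to other pathway genes. The further receptors Rxrb and Rxrg were at percentiles 37.3 and 62.7. The 5 enzymes listed for the oxidation of retinol ran from 30.6 to 92.2, and Aldh1a2, Cyp26a1 and Cyp26c1 were at 16.7, 41.2 and 36.9. By midpoint, 28.2% of all genes had more regions inside than the median of genes of like length, and among the 9 genes these were the 4 receptors and Aldh1a1. Rarb carried much of the total: without it the receptors had 8 regions inside. Per 100 kb of gene, the receptors held 2.72 regions and 5.11 without Rarb, the enzymes 1.63, and all protein-coding genes 1.60.

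Regions were next counted by the nearest 5′ end, which leaves out those that lie at the 5′ end of a protein-coding gene. The receptors had 13 regions and the enzymes 11, with medians of 3.5 and 3. All genes but Crabp2 had at least 1 such region, against 40.3% of all protein-coding genes. At least 4 such regions were found for Rarb, Rxra, Dhrs3 and Cyp26b1, 2 genes of each group, against 9.24% of all genes. Both counts hold only among 5′ ends of protein-coding genes: with those of all gene types, Rarb, Aldh1a1 and Aldh1a3 had 0, Rxra 3, Dhrs3 1 and Cyp26b1 2, so that none of the 9 genes had as many as 4. The stretch nearest to a 5′ end ranged from 17.3 kb for Rara to 647 kb for Rarb, and per 100 kb of that stretch the medians were 4.24 for receptors and 0.970 for enzymes. The receptors ran from 0.773 (Rarb) to 8.69 (Rarg) and the enzymes from 0.663 (Aldh1a3) to 1.96 (Dhrs3). Among genes with a stretch of like length, the receptors were at percentiles 69.3 to 96.4 and the enzymes at 43.8 to 77.8, so that the groups overlapped. Within the enzymes, the 2 breakdown genes had 4 regions each and the 2 synthesis genes 2 and 1. Within 100 kb of the 5′ end, whatever gene was nearest, the receptors had 20 regions and the enzymes 21, with medians of 5.5 and 5, beside a median of 4 for all genes. These counts include 1 narrow, weak region in each group. The one near Rarg had 99 bp, a fold of 2.13 and a −log10 q of 0.678. The one near Aldh1a3 had 89 bp, a fold of 2.53 and a −log10 q of 2.12. The side on which regions lay also differed: 22 of the 24 receptor regions were inside the gene, 2 before it and 0 beyond its 3′ end. Of the 14 enzyme regions 4 were inside, 5 before and 5 beyond. This split was not matched for gene size: Rarb, with 14 of the 22, spans 651 kb, whereas Cyp26b1 spans 22.5 kb in a stretch of 531 kb. Regions inside were counted whatever 5′ end was nearest, and for 9 in Rarb, 2 in Rara and 1 in Aldh1a1 it was another gene's. Regions outside that were nearest to another gene were left out.

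**Figure D3:**
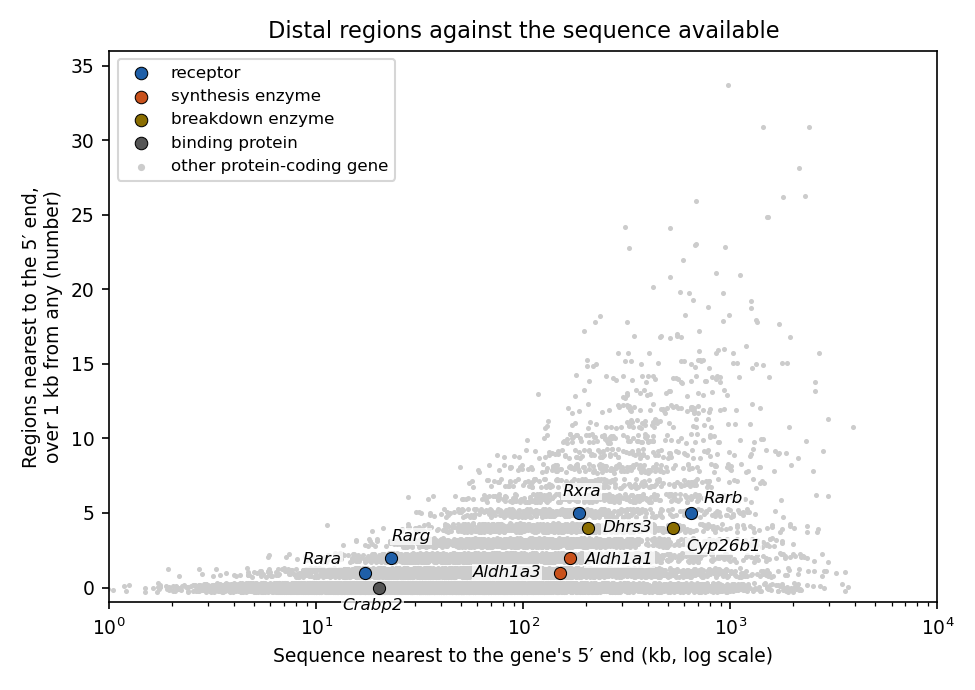
Regions nearest to each gene's 5′ end but at no protein-coding gene's 5′ end, against the length of sequence nearest to that end in kb on a log scale, for protein-coding genes with at least 1 kb of it (grey, moved slightly up or down at random so that points can be seen) and the 9 genes (coloured by role). Rxra and Rarb have 5 regions with 186 and 647 kb of sequence, Dhrs3 and Cyp26b1 have 4 with 204 and 531 kb, and Rara and Rarg have 1 and 2 with 17.3 and 23.0 kb.

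By strength the regions of these genes were ordinary for the list. Their median fold was 6.88 with a range of 3.92 to 15.8, close to the 6.87 of all regions over 1 kb from a 5′ end and below the 7.90 of regions near one. The receptors' 24 regions had a median of 7.05 and the enzymes' 14 a median of 6.79. Of the 38, 6 were above the upper quartile of the list, 5 of them in Rarb and 1 in Aldh1a1, and 9 were below the lower quartile. An IDR score of 1000 was reached by 15 regions (39.5%), and 16 (42.1%) were among the 16006 regions with the lowest q-values. By gene, the median fold was 4.99 for Rara, 5.26 for Cyp26b1, 5.85 for Rarg, 6.53 for Rxra, 6.76 for Aldh1a3, 6.88 for Dhrs3, 7.60 for Rarb and 9.16 for Aldh1a1. Without replicate values, neighbours in this order cannot be told apart.

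**Figure D4:**
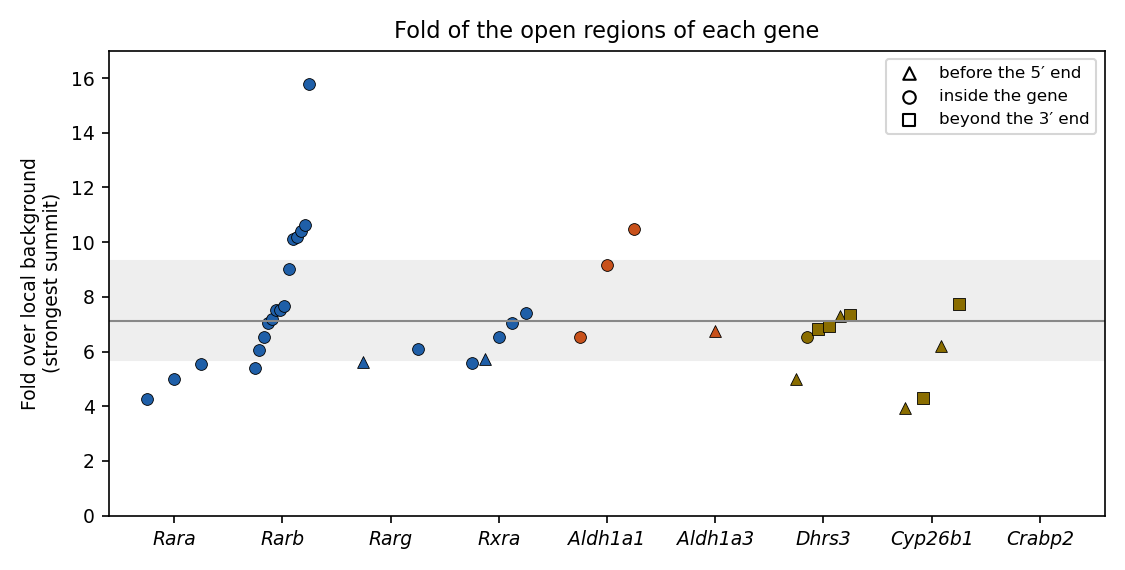
Fold over the local background of each of the 38 regions, by gene and by position before, inside or beyond the gene; the grey band spans the quartiles of all 32011 regions and the line is their median. All 3 regions of Rara lie below the band, 5 of Rarb and 1 of Aldh1a1 lie above it, and Crabp2 has none.

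The starts themselves were then compared by base composition, using windows from 250 bases before to 50 bases after each of the 15 listed starts. The CpG ratio is the number of CpG dinucleotides over the number that the C and G content alone would give, and starts with a ratio of at least 0.6 are commonly called CpG-rich. Over all protein-coding genes, 66.9% of 10137 such starts had a region within 1 kb, against 15.9% of 11126 below that ratio. Of these genes' starts, 6 were CpG-rich and 4 of them were open, namely the first 2 starts of Rara (0.609 and 0.606) and of Dhrs3 (0.824 and 0.675), which lie close together in each gene and share their region. The exceptions were the start of Rarb, with a ratio of 0.696, and the outer start of Rxra, with 1.08 the highest of the 15, whose closest regions were 22.8 and 26.3 kb away. In the other direction, the inner start of Aldh1a1 had a ratio of 0.0604 and lay under a region of fold 10.5, and 3 of the 9 starts below 0.6 were open in all. Of these 3, the third start of Dhrs3, with a ratio of 0.594, shares the region of that gene's first 2 starts. The remaining one was the inner start of Rarg.

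The half-site known from textbooks for these receptors is a word of 6 letters with a choice of letters at 2 places, which gives 4 forms, and all of them were counted. The first is AGGTCA, which among the printed stretches does not occur. AGTTCA is the form of the downstream part of the repeat in the Rarb stretch. GGTTCA is the form found in the upstream part of that same repeat. The last is GGGTCA, which is the form of the remaining half-site of the Rarb stretch and, on the other strand, of the half-site of Aldh1a1. The repeat in the Rarb promoter is a textbook example of these sites, so finding it there is a description and no independent observation. Such half-sites were found in 6 of the 15 windows, in 5 of the 7 genes (Rara, Rarb, Rarg, Rxra and Aldh1a1), against 41.2% of 21263 windows of protein-coding genes. Direct repeats of 2 half-sites on the same strand were searched on both strands with 1, 2 or 5 bases between them, the spacings at which pairs of RAR and RXR are known to bind. A repeat with 5 bases between occurred in 0.0800% of all windows, 17 in number, and, of the 7 genes with a listed start, in Rarb alone, at chr14:16575513-16575529, from 53 to 37 bases before the start. None of the 17 windows had an open region within 1 kb of its start. Repeats with 1 and 2 bases between occurred in 0.183% and 0.0894% of all windows and in none of the 15 windows of these 7 genes. The letters of the TATA box, TATAAA, were present in 12.6% of all windows and here in 1, from 139 to 134 bases before the start of Cyp26b1. CCAAT was found in 5 of the 15 windows and in 38.2% of all, and GGGCGG in 6 and in 46.2%. A match to these letters is a description of the sequence and not evidence of binding.

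The other genes of the pathway gave a background of the same kind. Of 30 genes for uptake, storage, oxidation, breakdown, coregulation and response, 8 (26.7%) had a region at the outermost 5′ end, beside the 38.3% of all genes. By role these were 3 of 6 coregulators, 2 of 5 enzymes listed for the oxidation of retinol, 2 of 7 genes known to respond to retinoic acid, 1 of 7 genes of uptake, binding and storage, and 0 of the 2 further receptors Rxrb and Rxrg, 0 of the 2 further breakdown enzymes Cyp26a1 and Cyp26c1, and not Aldh1a2, the remaining retinaldehyde dehydrogenase. The highest fold was at Dhrs9, an enzyme that oxidises retinol, with 16.4 at chr2:69380276-69380741, followed by 10.7 at Rdh11, which was listed under the same role. Folds at the 5′ ends of the transcription factors Meis1 and Meis2 were 9.18 and 5.18, that of the binding protein Fabp5 was 6.35, and the corepressors Nrip1 and Ncor1 had 8.46 and 5.43. Nearest to the 5′ end of Nrip1 were 17 regions, at percentile 98.8 for its stretch, where 1.42% of all genes had at least 10. No region was inside Aldh1a2 or nearest to its 5′ end, whereas Aldh1a1 had 3 inside and Aldh1a3 1 nearest.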

How the data were processed

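Alignment and peak calling were done by the authors with the ENCODE pipeline for ATAC-seq on paired-end reads, and 1 list was deposited without values by sample. Pipeline version and filters are not given in the sources used here. The submitters' processing notes name HOMER and, as the build, GRCm39, which conflicts with the coordinates. The deposited list holds an IDR score per region, a fold (ratio) over local background and the −log10 q-value for every summit, beside a −log10 p-value that was not used here and a summit position. Its 69545 lines gave 32011 distinct regions, each with the values of its summit of lowest q-value. Regions lay less than 1 kb from 38.3% of RefSeq 5′ ends of GRCm38.p6, 5.03% of those of GRCm39, and 4.44% and 3.77% with the former shifted by 50 kb, so coordinates were read as GRCm38 against those notes.

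Gene ends came from the RefSeq gene table of GRCm38.p6. Strand came from the promoter table for 17492 protein-coding genes and by name from the GRCm39 annotation for 3948 more (Aldh1a3 and Crabp2 among them), with no coordinate of that build; 21440 of 21887 had one. Like-length genes were taken in 50 bins, with tied genes counted equally above and below. The 9 genes, the other lists and the rules were chosen with earlier results of these data known. All 9 genes are named, as are listed pathway genes with a region at the 5′ end or at least 10 nearest, except for an item that is not reported here; further ones were named after their values were seen, as were CCAAT and GGGCGG. Functions were tested on simulated data. Scripts used matplotlib 3.10.9, scipy 1.17.1, pandas 2.3.3 and numpy 2.4.6 under Python 3.11.15.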

Additional observations from a re-analysis of the deposited data

How the results depend on the processing

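No paired analysis was possible because the list pools all samples, and for the same reason none could be left out. Genes with an open 5′ end numbered 1 within 500 bp, 2 kb or 5 kb, with any overlap, with either gene end, in the stricter set of 16006 regions and with an IDR score of 1000 only, and 4 with any listed start. The 26 regions inside became 27 with any overlap, 12 in the stricter set, 12 with an IDR score of 1000 and 53 when every summit was counted. The 24 regions nearest to a 5′ end became 9 with the 5′ ends of all gene types, 8 in the stricter set, 7 with an IDR score of 1000 and 47 with every region within 100 kb. The receptors' surplus over the enzymes was 2 regions by the nearest 5′ end, 0 in the stricter set and -1 within 100 kb, the reverse direction. The surplus inside was 18, 8 in the stricter set and 4 without Rarb. The difference of the medians by nearest 5′ end was 0.5, 2 against the synthesis genes alone and -0.5 against the breakdown genes alone. The stricter sets and the one without Rarb hold fewer regions by construction, and for the other changes the cause was not tested. The median fold was 5.99 with the median over summits. For single genes and motifs, 43 values moved by more than 1.5 times and 54 did not. Alternatives of listed starts, 5 kb, 100 kb and without Rarb were chosen after seeing the data.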
